A study of Mus musculus with 8 samples.

Results

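The 10 genes followed here govern the decision of a cell to leave G1 and copy its DNA, and were measured in uterine stroma: the D-type cyclins Ccnd1, Ccnd2 and Ccnd3, their kinases Cdk4 and Cdk6, the CIP/KIP kinase inhibitors Cdkn1a, Cdkn1b and Cdkn1c, and the transcription factors Myc and Mycn. They were chosen by symbol, with earlier results of these data known, and make up 10 of the 23238 gene symbols in the count files. All 10 had enough reads to be tested, so none is missing from what follows. The libraries hold RNA of stromal cells, the connective tissue cells under the uterine epithelium, taken from ovariectomized mice with the strain label C57BL/6-ICR. There were 4 groups of 2 libraries each. The KO E2 and KO oil groups carried deleted Atg7 (genotype Atg7d/d), with floxed Atg7 removed in the uterine mesenchyme by Cre expressed from Amhr2, and received estradiol (E2) or oil. The CON E2 and CON oil groups carried floxed, intact Atg7 (Atg7f/f) and received the same injections. Atg7 encodes the enzyme that starts the conjugation reactions of autophagy. No group carried Cre with intact Atg7, so effects of Cre and of the deletion cannot be told apart, and the labels give neither ages, nor the dose and time of estradiol, nor the way stroma was separated. The labels also do not tie the 2 libraries of a group to separate animals, so a p-value here reflects only how far these samples scatter, which may be technical.

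D-type cyclins are made in response to growth signals and switch on CDK4 and CDK6, which phosphorylate the retinoblastoma protein and so free E2F factors to turn on genes for DNA replication. The CIP/KIP proteins p21 (Cdkn1a), p27 (Cdkn1b) and p57 (Cdkn1c) bind cyclin and CDK complexes and, for the most part, hold them inactive, while MYC raises genes for growth and biosynthesis, Cdk4 among them. In the uterus, estradiol is known to drive the epithelium of ovariectomized mice into division, and the stroma relays part of that signal through secreted growth factors.

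Promoter sequences are shown for Cdk4, the one of the 10 genes that rose after estradiol, and for Cdkn1a, an inhibitor that fell. They come from RefSeq on GRCm38.p6, the assembly called mm10 in genome browsers, in which 6 of the 10 genes had a promoter entry. Both run 5′ to 3′ on the plus strand and end just before an annotated start of transcription. Capitals mark the E-box CACGTG, the palindrome bound by MYC with MAX, and the Sp1 box GGGCGG or, on the other strand, CCGCCC. The Cdk4 promoter lies at chr10:127063285-127063533 and the Cdkn1a promoter at chr17:29093519-29093768, the second of 2 listed for that gene. That second promoter lies inside the gene span given below and overlaps an exon of AC167363.2 on the minus strand. The first Cdkn1a promoter, at chr17:29090729-29090975, held neither motif and is not shown.
Cdk4: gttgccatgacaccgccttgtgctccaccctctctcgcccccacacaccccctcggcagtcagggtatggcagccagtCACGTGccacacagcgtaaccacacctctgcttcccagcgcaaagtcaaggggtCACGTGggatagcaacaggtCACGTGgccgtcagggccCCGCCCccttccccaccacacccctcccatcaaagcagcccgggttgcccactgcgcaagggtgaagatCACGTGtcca
Cdkn1a: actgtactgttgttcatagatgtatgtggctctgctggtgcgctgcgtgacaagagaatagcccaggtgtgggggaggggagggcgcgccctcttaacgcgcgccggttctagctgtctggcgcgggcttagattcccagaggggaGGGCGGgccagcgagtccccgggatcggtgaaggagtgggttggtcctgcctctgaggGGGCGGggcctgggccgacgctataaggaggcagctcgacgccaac
The Cdk4 stretch held 4 E-boxes, whose first bases lie 172, 118, 98 and 11 bases upstream of the start site, and 1 Sp1 box at 80 bases. The Cdkn1a stretch held no E-box and 2 Sp1 boxes, at 104 and 46 bases, and no match overlapped another. Of 32851 promoters in the same table, 6.02% held at least 1 E-box, 7 promoters (0.0213%) held 4 or more, and 32.7% held an Sp1 box. These matches describe letters and are not evidence of binding, and the windows of the other 4 genes with an entry held 1 E-box (Cdk6) or only Sp1 boxes (Ccnd3, Cdkn1b and Mycn).

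Library totals ran from 5458390 to 6951080 counts, and 13347 genes were tested. The label of stroma held only in part, since markers of epithelium were present in every library. The 15 epithelium markers summed to 1469 and 1964 CPM (reads of a gene relative to all reads of its library, with edgeR scaling) in KO E2, 11403 and 4866 in KO oil, 1444 and 2997 in CON E2, and 18268 and 6236 in CON oil, and none was at 0 in all libraries. The 14 stroma markers summed to 9710 and 9189 CPM in KO E2, 3100 and 3819 in KO oil, 9485 and 6923 in CON E2, and 2634 and 3181 in CON oil. Much of the stroma sum with estradiol came from 3 collagen genes. Col1a1, Col1a2 and Col3a1 averaged 1982, 2457 and 1244 CPM in KO E2, against 52.0, 139 and 59.3 in KO oil. They averaged 1542, 2215 and 1014 CPM in CON E2, against 44.1, 88.4 and 44.2 in CON oil. Dcn, another stroma marker, went the other way, at 1116 against 1455 CPM in KO stroma and 725 against 1137 in CON stroma. The sum over epithelium markers was thus lower, and that over stroma markers higher, in each estradiol library than in each oil library. In bulk RNA, fewer cells of a type and less RNA per cell cannot be told apart, and the part of this shift in the estradiol results was not tested. Markers of lymphocytes and NK cells stayed between 0.615 and 2.84 CPM in sum. Atg7 had 4.14 and 3.56 CPM in KO E2, 3.32 and 5.20 in KO oil, 2.79 and 3.53 in CON E2, and 3.47 and 5.67 in CON oil, from 20 to 33 reads per library, so its level did not separate the libraries labelled KO from those labelled CON. Reads from the end of the transcript would not check a deletion of internal exons, and no source used here says where in the gene these reads lie, so the KO label was not borne out by this level and KO stands for the label throughout.

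Estradiol lowered 2 of the 3 CIP/KIP inhibitors, lowered Ccnd2 and raised Cdk4, in stroma of both genotypes. In KO stroma 1 gene rose (Cdk4), 3 fell (Ccnd2, Cdkn1a and Cdkn1c) and 6 did not pass (edgeR quasi-likelihood test, Benjamini-Hochberg adjusted p below 0.05 over all tested genes). The same 4 genes passed in CON stroma, in the same directions. Among all tested genes 24.3% changed with estradiol in KO stroma (13.1% higher, 11.2% lower) and 29.8% in CON stroma (15.8% higher, 14.0% lower), so 4 of 10 is not far above the background. The median log2 fold change of the 10 genes was -0.39 in KO stroma and -0.41 in CON stroma, against 0.02 and 0.01 over all tested genes, and the CON value was -0.69 without CON E2 library 1 and -0.65 without CON oil library 2. The estradiol and oil libraries did not overlap for 6 of the 10 genes in KO stroma, 1 higher and 5 lower (all tested genes: 68.2%, with 35.5% higher and 32.7% lower). In CON stroma they did not overlap for 7 of 10, 2 higher and 5 lower (all tested genes: 65.5%, with 33.8% higher and 31.7% lower), so these shares are near the background.

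Markers of cell types and of early response moved with estradiol in the same libraries. The counts without overlap in this paragraph stand against all tested genes, of which 68.2% in KO stroma and 65.5% in CON stroma did not overlap. Of all tested genes, 35.5% lay higher and 32.7% lower in KO stroma, and 33.8% higher and 31.7% lower in CON stroma. By this measure, 11 of 14 stroma markers lay higher and 1 lower (Dcn) in KO E2 than in KO oil. In CON E2, 13 lay higher and 1 lower (Dcn again) than in CON oil. Of 15 epithelium markers, 10 lay lower and 2 higher (Ehf and Foxa2) in KO stroma, and 8 lay lower and 1 higher (Ehf) in CON stroma. The 7 smooth muscle markers summed to 6073 and 7010 CPM in KO E2, against 2847 and 3825 in KO oil, and to 6313 and 6446 CPM in CON E2, against 1492 and 3306 in CON oil. The 5 erythroid markers summed to 349.6 and 383 CPM in KO E2, against 233 and 241 in KO oil, and to 495 and 276 CPM in CON E2, against 163 and 199 in CON oil. Without overlap, 6 smooth muscle markers lay higher with estradiol in each genotype, and Smtn lay lower in KO stroma. Likewise the 4 globin genes lay higher, and Alas2 lower, in both genotypes. The 10 early response genes, which many tissues switch on within minutes of stimulation or handling, summed to 13043 and 10135 CPM in KO E2, against 17480 and 18844 in KO oil, and to 15073 and 12156 CPM in CON E2, against 20373 and 23944 in CON oil. Of these 10 genes, 7 lay lower in KO E2 and 8 in CON E2 without overlap, and none higher. Smooth muscle and erythroid sums were therefore higher, and early response sums lower, in each estradiol library than in each oil library, and their part in the changes of Cdkn1a, Cdkn1c, Ccnd2, Cdk4 and the lists around them was not tested.

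**Figure D1:**
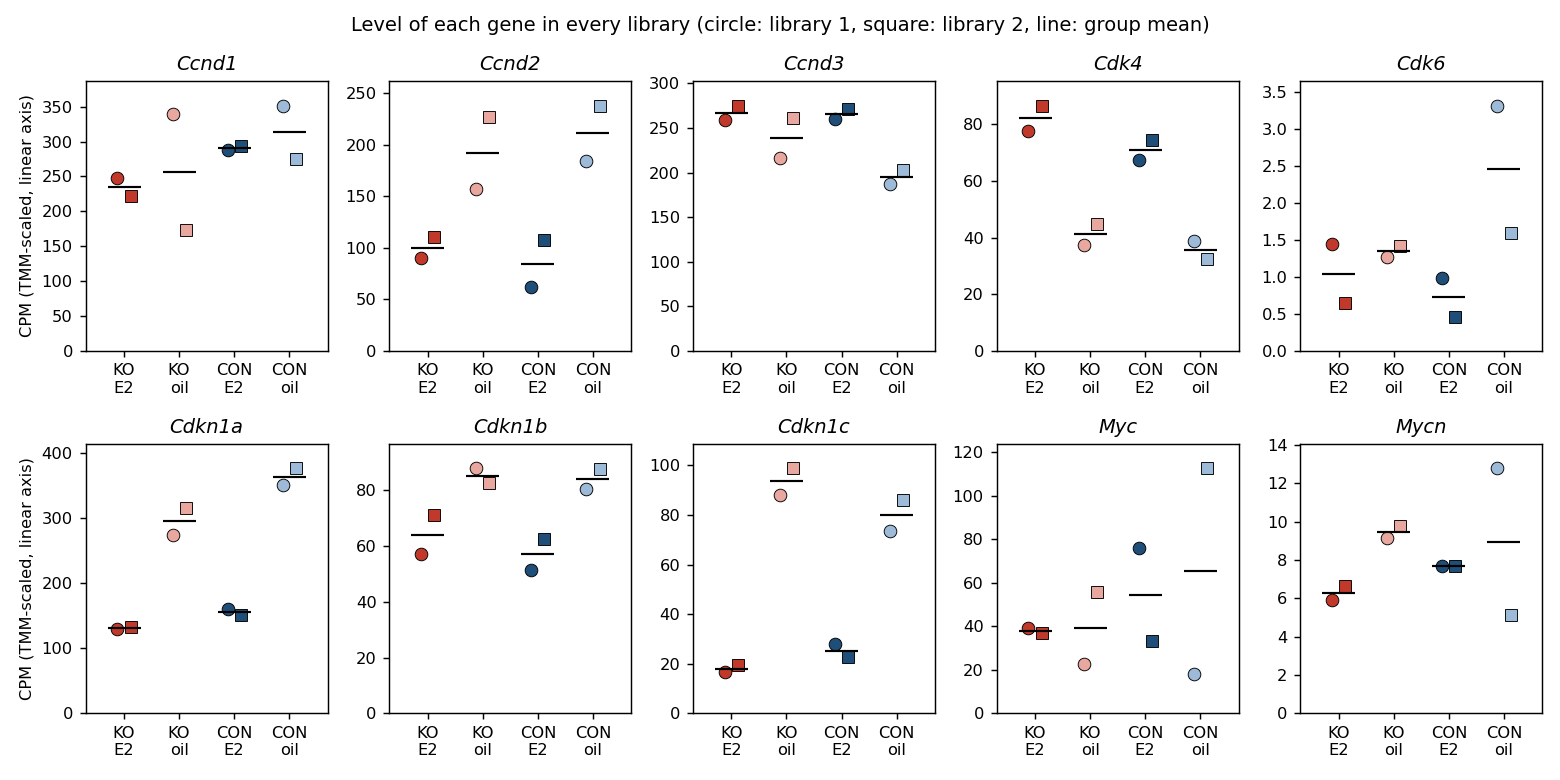
Level of each of the 10 genes in the 8 libraries, in CPM on linear axes that start at 0 and differ between panels, with circles for library 1, squares for library 2 and a line for the group mean. Cdkn1a and Cdkn1c lie lower, and Cdk4 higher, in all 4 estradiol libraries than in all 4 oil libraries, while the 2 Myc libraries of CON oil lie at 18.3 and 113 CPM.

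Cdkn1c, which encodes p57 and is expressed mainly from the maternal chromosome, showed the largest fall among the 10 genes in KO stroma (chromosome 7, 143458339 to 143461050, minus strand). Its level was 16.7 and 19.4 CPM in KO E2, against 88.2 and 98.8 CPM in KO oil. In CON stroma it was 27.9 and 22.7 CPM with E2, against 73.5 and 86.0 CPM with oil. The estradiol libraries lay far below the oil libraries in both genotypes, with no overlap. The level was 5.16-fold lower in KO stroma (log2 fold change -2.37 ± 0.21, SE from the fit as for all fold changes here, edgeR adjusted p = 0.000649) and 3.14-fold lower in CON stroma (-1.65 ± 0.20, edgeR adjusted p = 0.00111). Both calls held in each of the 8 fits that left out 1 library.

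Cdkn1a encodes p21, the inhibitor that p53 induces after DNA damage (chromosome 17, 29090976 to 29100727, plus strand). It stood at 129 and 132 CPM in KO E2, against 274 and 315 CPM in KO oil. In CON stroma the values were 160.5 and 151 CPM with E2, against 350.2 and 376 CPM with oil. Again no estradiol library reached the level of an oil library, and the 2 libraries of each group lay close together. Cdkn1a was 2.26-fold lower in KO stroma (-1.17 ± 0.16, edgeR adjusted p = 0.00243) and 2.33-fold lower in CON stroma (-1.22 ± 0.16, edgeR adjusted p = 0.00159), and these calls also held in all 8 fits without 1 library.

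Cdkn1b, which encodes p27, the inhibitor held high in resting cells and removed by degradation when they divide, did not pass (chromosome 6, 134920401 to 134925513, plus strand). It had 57.0 and 70.8 CPM in KO E2, against 87.7 and 82.4 CPM in KO oil, and 51.4 and 62.5 CPM in CON E2, against 80.5 and 87.3 CPM in CON oil. The estradiol libraries lay under the oil libraries in both genotypes without overlap. The log2 fold changes were -0.41 ± 0.19 in KO stroma (edgeR adjusted p = 0.139) and -0.56 ± 0.19 in CON stroma (edgeR adjusted p = 0.0521). The CON value passed with another scaling (DESeq2 size factors, adjusted p = 0.0419). It passed in 3 of the 9 alternatives that kept all libraries of the groups compared (edgeR or DESeq2 adjusted p = 0.0286 to 0.105). Over the fits without 1 library the CON change ran from -0.70 to -0.42.

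The 3 inhibitors together summed to 213 ± 13.5 CPM in KO E2 (mean and SD of the 2 libraries in each group) and 473 ± 32.6 CPM in KO oil, and to 238 ± 2.79 CPM in CON E2 and 527 ± 32.0 CPM in CON oil. Within that sum the share of Cdkn1c was 8.49% ± 0.350 in KO E2 and 19.8% ± 0.225 in KO oil, and 10.6% ± 1.42 in CON E2 and 15.1% ± 0.761 in CON oil. The share of Cdkn1b lay the other way, at 30.0% ± 2.69 in KO E2 and 18.0% ± 2.04 in KO oil, and 24.0% ± 3.59 in CON E2 and 15.9% ± 0.0528 in CON oil. The share of Cdkn1a lay between 59.4% and 69.5% in all 8 libraries. The shares are of reads not scaled by length, so they compare libraries and do not rank the genes, and they were not tested.

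Cdk4, the kinase partner of D cyclins that the promoter sequence above belongs to, rose in both genotypes (chromosome 10, 127063534 to 127067920, plus strand). Its level was 77.7 and 86.7 CPM in KO E2, against 37.5 and 44.7 CPM in KO oil. In CON stroma it was 67.6 and 74.7 CPM with E2, against 38.7 and 32.6 CPM with oil. Each estradiol library lay above each oil library, by a log2 fold change of 1.0 ± 0.19 in KO stroma (edgeR adjusted p = 0.0072) and 1.0 ± 0.19 in CON stroma (edgeR adjusted p = 0.00606). The KO call ended without KO E2 library 2 (adjusted p = 0.060) and without KO oil library 1 (adjusted p = 0.0584), and the CON call held in all 8 fits. Tspan31, a membrane protein gene that overlaps Cdk4 on the opposite strand, stood at 0.76 ± 0.25 in KO stroma (edgeR adjusted p = 0.0578) and 0.66 ± 0.25 in CON stroma (edgeR adjusted p = 0.0781). No source used here says whether counting used strand, so reads of the overlapping ends cannot be told apart.

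Cdk6, the other kinase of D cyclins, was close to the detection limit, with 3 to 21 reads per library (chromosome 5, 3341485 to 3531008, plus strand). It had 8 and 4 reads in KO E2, 8 and 9 in KO oil, 7 and 3 in CON E2, and 21 and 9 in CON oil. KO libraries overlapped between treatments, whereas both CON E2 libraries lay under both CON oil libraries. The log2 fold changes of -0.37 ± 0.72 in KO stroma (edgeR adjusted p = 0.736) and -1.74 ± 0.69 in CON stroma (edgeR adjusted p = 0.0873) did not pass at this depth.

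Ccnd2, the D cyclin known for its role in ovarian granulosa cells and B cells, fell in both genotypes (chromosome 6, 127125162 to 127152193, minus strand). It stood at 90.0 and 110.0 CPM in KO E2, against 157 and 227 CPM in KO oil. In CON stroma it stood at 61.6 and 107 CPM with E2, against 184 and 238 CPM with oil. The groups did not overlap, although library 2 was higher than library 1 in each of the 4 groups. Ccnd2 was 1.92-fold lower in KO stroma (-0.94 ± 0.29, edgeR adjusted p = 0.0462) and 2.50-fold lower in CON stroma (-1.32 ± 0.30, edgeR adjusted p = 0.0114). The KO call ended without any 1 of the KO libraries (adjusted p = 0.248 and 0.131 without E2 libraries 1 and 2, 0.059 and 0.232 without oil libraries 1 and 2) and with library totals as the only scaling (0.0586), and the CON call ended without CON E2 library 1 (0.0823).

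Ccnd1, the D cyclin most often linked to mitogen signalling, did not pass (chromosome 7, 144929931 to 144939925, minus strand). It had 248 and 223 CPM in KO E2, against 339.9 and 173 CPM in KO oil, and 287 and 294 CPM in CON E2, against 352 and 275 CPM in CON oil. The 2 KO oil libraries lay on either side of both KO E2 libraries, and the 2 CON oil libraries on either side of both CON E2 libraries. The log2 fold changes were -0.12 ± 0.29 in KO stroma (edgeR adjusted p = 0.786, 95% interval -0.77 to 0.53) and -0.11 ± 0.29 in CON stroma (adjusted p = 0.80, -0.76 to 0.54), so a change of up to about 0.5 on the log2 scale in either direction lies within both intervals.

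Ccnd3, the D cyclin common in differentiating cells, was 259 and 275 CPM in KO E2, against 216 and 262 CPM in KO oil (chromosome 17, 47505051 to 47599691, plus strand). In CON stroma it was 261 and 272 CPM with E2, against 187 and 202 CPM with oil. Only the CON groups stood apart, and neither change passed, at 0.16 ± 0.17 in KO stroma (edgeR adjusted p = 0.508) and 0.45 ± 0.17 in CON stroma (edgeR adjusted p = 0.0722). Bysl, which overlaps Ccnd3 on the opposite strand, stood at -0.21 ± 0.18 (edgeR adjusted p = 0.444) and 0.01 ± 0.18 (edgeR adjusted p = 0.975) in the same comparisons.

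Taking the D cyclins as a family, the sum was 603 ± 7.34 CPM in KO E2 and 687 ± 36.3 CPM in KO oil, and 641 ± 44.5 CPM in CON E2 and 719 ± 5.85 CPM in CON oil. Ccnd2 made up 16.6% ± 2.15 of family reads in KO E2 and 28.1% ± 8.71 in KO oil, and 13.0% ± 4.15 in CON E2 and 29.4% ± 5.53 in CON oil. Ccnd3 made up 44.3% ± 1.32 in KO E2 and 34.9% ± 6.58 in KO oil, and 41.6% ± 1.67 in CON E2 and 27.1% ± 1.69 in CON oil. The family sum thus differed less between treatments than its make-up did, with Ccnd2 lower and Ccnd3 higher in share in every estradiol library than in the oil libraries of the same genotype. These shares too compare libraries only and were not tested.

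**Figure D2:**
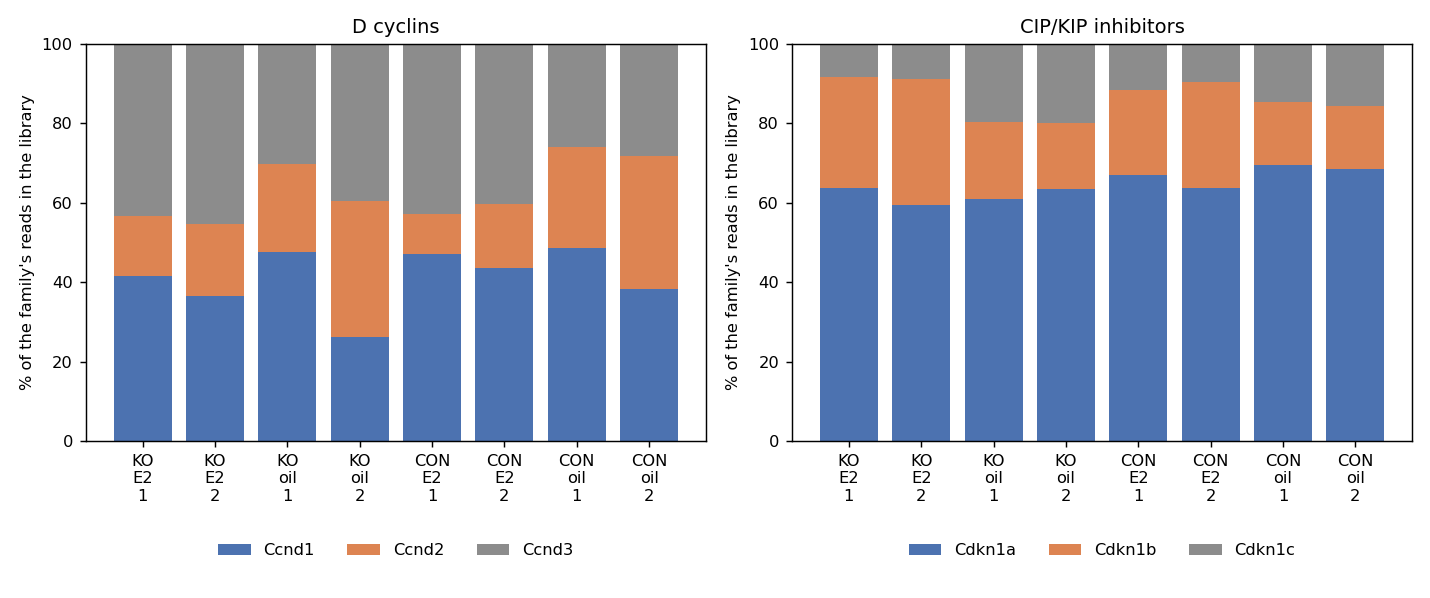
Share of reads, in percent of the family's reads in each library, that came from each D cyclin (left) and each CIP/KIP inhibitor (right), with KO E2, KO oil, CON E2 and CON oil libraries from left to right. The Ccnd2 segment lies between 10.1% and 18.1% in the 4 estradiol libraries and between 21.99% and 34.3% in the 4 oil libraries.

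Myc gave no estradiol call, and the spread within groups exceeded the difference between them (chromosome 15, 61985391 to 61990374, plus strand). It had 39.0 and 36.7 CPM in KO E2, against 22.9 and 55.9 CPM in KO oil. In CON stroma it had 76.1 and 33.0 CPM with E2, against 18.3 and 113 CPM with oil. Oil libraries lay on both sides of the estradiol libraries in each genotype. The log2 fold change was -0.06 ± 0.73 in KO stroma (edgeR adjusted p = 0.963, 95% interval -1.71 to 1.60) and -0.26 ± 0.72 in CON stroma (adjusted p = 0.812, -1.88 to 1.37). In CON stroma it was 1.55 without CON oil library 2 (edgeR adjusted p = 0.0644) and -1.01 without CON oil library 1.

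In KO oil, CON E2 and CON oil, the library with more Myc also had more Fos and less epithelial RNA. Other early response genes were mixed. Fos, an immediate early gene, had 1619 and 1070 CPM in KO E2, 1045 and 1619 in KO oil, 2408 and 986 in CON E2, and 936 and 2917 in CON oil. In KO oil, CON E2 and CON oil the library with the higher Myc level had the higher Fos level. It also had the lower sum of the 15 epithelium markers given above. The KO E2 libraries had nearly the same Myc level, 39.0 and 36.7 CPM from 217 and 227 reads. Their order by Myc is therefore not clear. In KO E2 all 10 early response genes, Fos among them, were higher in library 1. Of the same 10, 6 were higher and 4 lower in the library with more Myc in KO oil, CON E2 and CON oil. Jun and Ier3 were among the lower genes in those 3 groups, at 4321 CPM of Jun in KO oil library 2 against 4587 in library 1 and at 4440 CPM in CON oil library 2 against 5528 in library 1. By the root mean square difference of centred log2 CPM over the 8 libraries, the 3 genes nearest to Myc among 8710 were Rasd1 at 0.25, Tnfaip3 at 0.31 and Fos at 0.33. Fos and the comparison with Myc were picked after their values were seen, and the part of cell mix and of early response in the Myc spread was not tested.

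**Figure D3:**
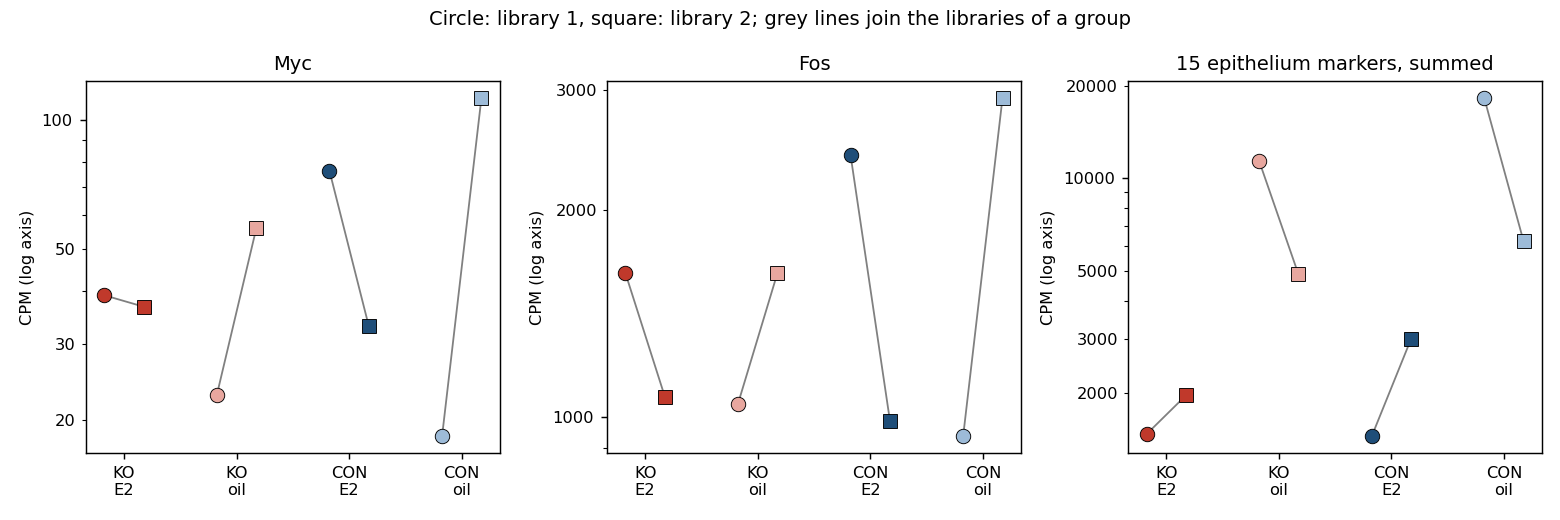
Myc, Fos and the sum of 15 epithelium markers in each library, in CPM on log axes, with circles for library 1, squares for library 2 and grey lines that join the libraries of a group. Where the Myc line slopes up, as between the CON oil libraries at 18.3 and 113 CPM, the Fos line slopes up and the epithelium line slopes down.

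Mycn, the MYC relative best known from embryonic tissue, was low, at 29 to 81 reads per library (chromosome 12, 12936093 to 12941914, minus strand). It had 5.94 and 6.63 CPM in KO E2, against 9.17 and 9.77 CPM in KO oil, and 7.68 CPM in both CON E2 libraries, against 12.8 and 5.13 CPM in CON oil. The KO groups did not overlap and the CON groups did. Neither change passed, at -0.59 ± 0.41 in KO stroma (edgeR adjusted p = 0.318) and -0.23 ± 0.40 in CON stroma (edgeR adjusted p = 0.695).

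**Figure D4:**
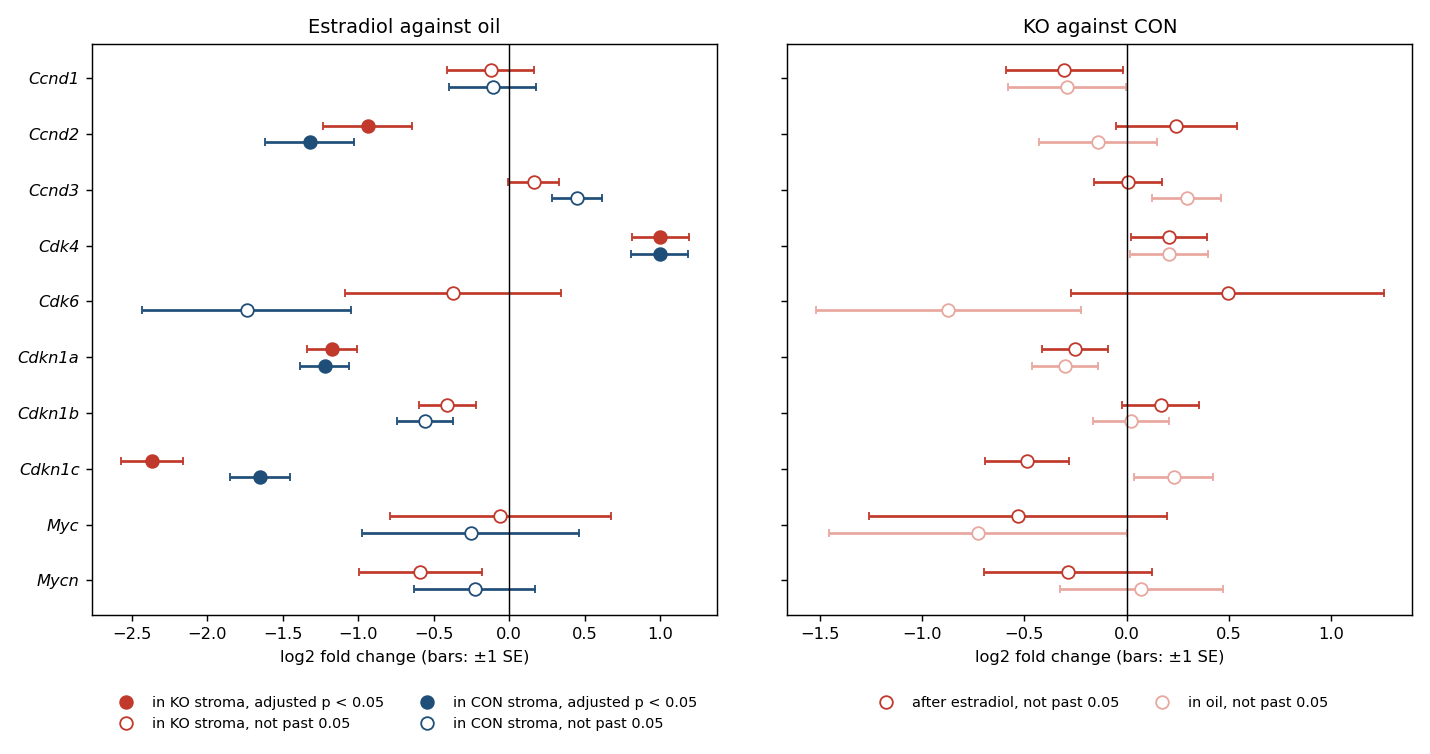
Log2 fold changes of the 10 genes with bars of 1 SE, for estradiol against oil (left, KO above CON) and for KO against CON (right, estradiol above oil), with filled points for an adjusted p below 0.05. Cdkn1c, Cdkn1a, Ccnd2 and Cdk4 are filled in both genotypes on the left, and no point is filled on the right.

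The genes whose levels over the 8 libraries most resembled those of the 4 changed genes were found by the same root mean square difference. Nearest to Cdkn1a were Btg2, an antiproliferative p53 target, at 0.07, Midn at 0.09 and Jade1 at 0.10. Btg2 had 319 ± 20.6 CPM in KO E2 and 669 ± 17.2 CPM in KO oil, and 349 ± 26.0 CPM in CON E2 and 829 ± 44.5 CPM in CON oil, so it was lower in the same libraries as the early response genes, and the part of that shift was not tested. Nearest to Cdk4 were Mrps21, a mitochondrial ribosomal protein, at 0.07, Foxred1, needed for respiratory complex I, at 0.09, and the mitofusin Mfn2 at 0.09. Nearest to Ccnd2 were Opa3 at 0.12, the phosphodiesterase Pde4a at 0.14 and Dock6 at 0.16, and nearest to Cdkn1c were the adhesion molecule Cadm1 at 0.18, the transcription factor Atoh8 at 0.19 and Slc16a13 at 0.20.

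Most proliferation markers rose, and about as many E2F and DP factors rose as did not pass. Counts in this and the next lists stand against 13.1% higher and 11.2% lower among all tested genes in KO stroma, and 15.8% higher and 14.0% lower in CON stroma. Of 14 proliferation markers, 12 rose in KO stroma and 13 in CON stroma, and none fell, with median log2 fold changes of 1.79 and 2.39, against 0.02 and 0.01 over all tested genes. Mcm5, a subunit of the replicative helicase, rose by 1.81 ± 0.26 in KO stroma and 2.37 ± 0.27 in CON stroma, and the topoisomerase Top2a by 1.78 ± 0.21 and 2.99 ± 0.22. Of 10 E2F and DP factors, 4 rose and 1 fell in KO stroma, and 5 rose and 1 fell in CON stroma, with medians of 0.38 and 0.68. E2f1 rose by 2.31 ± 0.22 in KO stroma and 3.21 ± 0.23 in CON stroma, and the repressor E2f7 by 1.41 ± 0.29 and 1.42 ± 0.28. Tfdp2, a DNA-binding partner of E2F, fell by 1.04 ± 0.25 in KO stroma and 1.49 ± 0.26 in CON stroma. In KO stroma the count of proliferation calls was 5 without KO E2 library 2. That of E2F and DP calls in KO stroma was 2 and 1 without KO E2 libraries 1 and 2, and 3 and 1 without KO oil libraries 1 and 2, and in CON stroma it was 3 without CON E2 library 1. The E2f7 call in KO stroma ended without KO E2 library 2 (adjusted p = 0.0756), KO oil library 1 (0.0549) or KO oil library 2 (0.0585), and that of Tfdp2 without any 1 of the 4 KO libraries (0.0549 to 0.126).

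The list around cyclin E and CDK2 held Ccne1, Ccne2, Ccna2, Cdk2, Cdk7, Ccnh, Mnat1, Cdc25a and Cdc37. Of these 9 genes, 1 rose in KO stroma (Ccna2) and 4 in CON stroma (Ccna2, Ccne1, Ccnh and Cdc37). None fell, and the medians were 0.41 and 0.56. Ccna2, the cyclin of S phase and mitosis, rose by 3.02 ± 0.27 in KO stroma and 3.60 ± 0.26 in CON stroma. Ccne1, the first cyclin partner of CDK2, rose by 1.97 ± 0.38 in CON stroma and stood at 0.79 ± 0.35 in KO stroma (edgeR adjusted p = 0.126). Cdk2 itself stood at 0.40 ± 0.23 and 0.56 ± 0.23 and did not pass in either genotype. Ccnh rose by 0.75 in CON stroma, but its call was lost in every fit without 1 library, where it ran from 0.69 to 0.81. Cdc37 rose by 0.63 in CON stroma and ran from 0.53 to 0.73 over those fits. Its call was lost without CON E2 library 1, CON E2 library 2 or CON oil library 2. The CON count was 2 without CON E2 library 1 or 2, and the KO count was 2 without CON oil library 1 or 2. Of the other family of G1 inhibitors, the INK4 genes, 3 of 4 could be tested and 1 rose, Cdkn2c in CON stroma (1.87 ± 0.37), a call that ended without CON E2 library 1 (adjusted p = 0.0631). Of the 3 pocket proteins, the targets of cyclin D and CDK4, Rbl1 rose in KO stroma (1.24 ± 0.39, edgeR adjusted p = 0.0458) and none passed in CON stroma, where Rbl1 stood at 0.95 ± 0.37. The Rbl1 call ended in 5 of the 8 fits without 1 library, those without either CON E2 library (adjusted p = 0.0719 and 0.0704), either KO E2 library (0.216 and 0.107) or KO oil library 2 (0.21), and the log2 fold change was 1.87 without KO oil library 1 and 0.80 without KO oil library 2. With 0 or 1 call among 3 genes, neither of these short lists can be told from the background.

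Some known MYC targets rose, and Myc itself gave no call. Of 20 such genes 19 were tested, and 8 rose and none fell in each genotype, with medians of 0.60 in KO stroma and 0.48 in CON stroma. Nme1, a nucleoside diphosphate kinase, rose by 2.15 ± 0.22 in KO stroma and 2.33 ± 0.23 in CON stroma. Cad, which starts pyrimidine synthesis, rose by 1.23 ± 0.20 and 2.0 ± 0.21, and the nuclear transport GTPase Ran by 1.41 ± 0.19 and 1.48 ± 0.19. Odc1, the polyamine enzyme often used as a readout of MYC, stood at -0.25 ± 0.22 and -0.19 ± 0.22 and did not pass. The KO count was 4 without KO E2 library 1 or 2 and 5 without KO oil library 2, where the median was 0.32. The CON median was 0.05 without CON E2 library 2, 0.04 without CON oil library 2 and 0.75 without CON oil library 1, and without CON oil library 2 the CON calls were 6 higher and 2 lower. Of 12 factors that partner or oppose MYC, 3 rose and 3 fell in KO stroma and 3 rose and 2 fell in CON stroma, with medians of -0.26 and -0.18, the CON one at 0.15 without CON oil library 2. Mycl, the third MYC family gene, fell by 2.38 ± 0.43 in KO stroma and 2.80 ± 0.43 in CON stroma, and Max stood at -0.07 ± 0.17 and 0.18 ± 0.17. The KO count of 6 was 0 without either KO E2 library, 1 without KO oil library 1 and 3 without KO oil library 2, and the Mycl call in KO stroma ended without KO E2 library 1 (adjusted p = 0.0682) or 2 (0.0515). The CON count of 5 was 1 and 2 without CON E2 libraries 1 and 2.

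Of the genes that share regulation or a chromosome domain with the inhibitors, those of p53 moved both ways and those around Cdkn1c leaned lower. Of 18 genes of p53 and its targets 17 were tested, and 2 rose and 6 fell in KO stroma and 6 rose and 7 fell in CON stroma, with medians of -0.09 and 0.05, which ran from -0.26 to 0.03 in KO stroma and from -0.39 to 0.16 in CON stroma over the fits without 1 library. Bax, which promotes cell death, rose by 1.66 ± 0.18 in KO stroma and 1.63 ± 0.18 in CON stroma, whereas Btg2 fell by 1.07 ± 0.17 and 1.25 ± 0.17. The KO count of 8 was 3 without either KO E2 library and 4 without KO oil library 1, and the CON count of 13 was 6 and 7 without CON E2 libraries 1 and 2 and 7 without CON oil library 1. Of 10 imprinted or neighbouring genes on the chromosome segment of Cdkn1c, 1 rose and 2 fell in KO stroma and 1 rose and 4 fell in CON stroma, with medians of -1.14 and -0.91. Kcnq1ot1, the long RNA that silences Cdkn1c on the paternal chromosome, averaged 100.2 ± 0.294 CPM in KO E2 and 219 ± 57.9 CPM in KO oil, and 102 ± 11.8 CPM in CON E2 and 243 ± 25.1 CPM in CON oil, so it fell together with Cdkn1c (-1.13 ± 0.21 and -1.24 ± 0.21). It runs opposite to Kcnq1, and without strand the reads of the 2 genes cannot be told apart. H19, an imprinted RNA of the neighbouring domain, fell by 1.25 ± 0.30 in KO stroma and 1.94 ± 0.31 in CON stroma. The KO calls of Kcnq1ot1 and H19 ended without KO E2 library 1 (adjusted p = 0.0716 and 0.116), KO E2 library 2 (0.0625 and 0.106) or KO oil library 1 (0.0514 and 0.126). The imprinted count in KO stroma was 0 without any 1 of those libraries, and 6 and 5 without CON oil libraries 1 and 2, and the CON count was 2 without either CON E2 library.

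Of 12 genes of the degradation machinery for D cyclins, p27 and MYC, 2 rose in KO stroma, and 1 rose and 1 fell in CON stroma, against 24.3% and 29.8% of all tested genes changed in either direction. The medians were -0.04 and -0.07, and ran from -0.09 to 0.11 in KO stroma and from -0.15 to 0.01 in CON stroma over the fits without 1 library. Skp2, which marks p27 for degradation, had 4.77 ± 0.118 CPM in KO E2 and 1.66 ± 0.331 CPM in KO oil (1.52 ± 0.41, edgeR adjusted p = 0.0281), and stood at 0.91 ± 0.39 in CON stroma (edgeR adjusted p = 0.107). Its cofactor Cks1b rose by 1.26 ± 0.40 in KO stroma and 1.35 ± 0.40 in CON stroma. The KO count was 0 without any 1 of the 4 KO libraries and 1 without either CON E2 library, and the CON count was 0 without either CON E2 library and 1 without either CON oil or either KO E2 library. For Cks1b the CON value was 2.25 without CON oil library 1 and 0.78 without CON oil library 2.

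**Figure D5:**
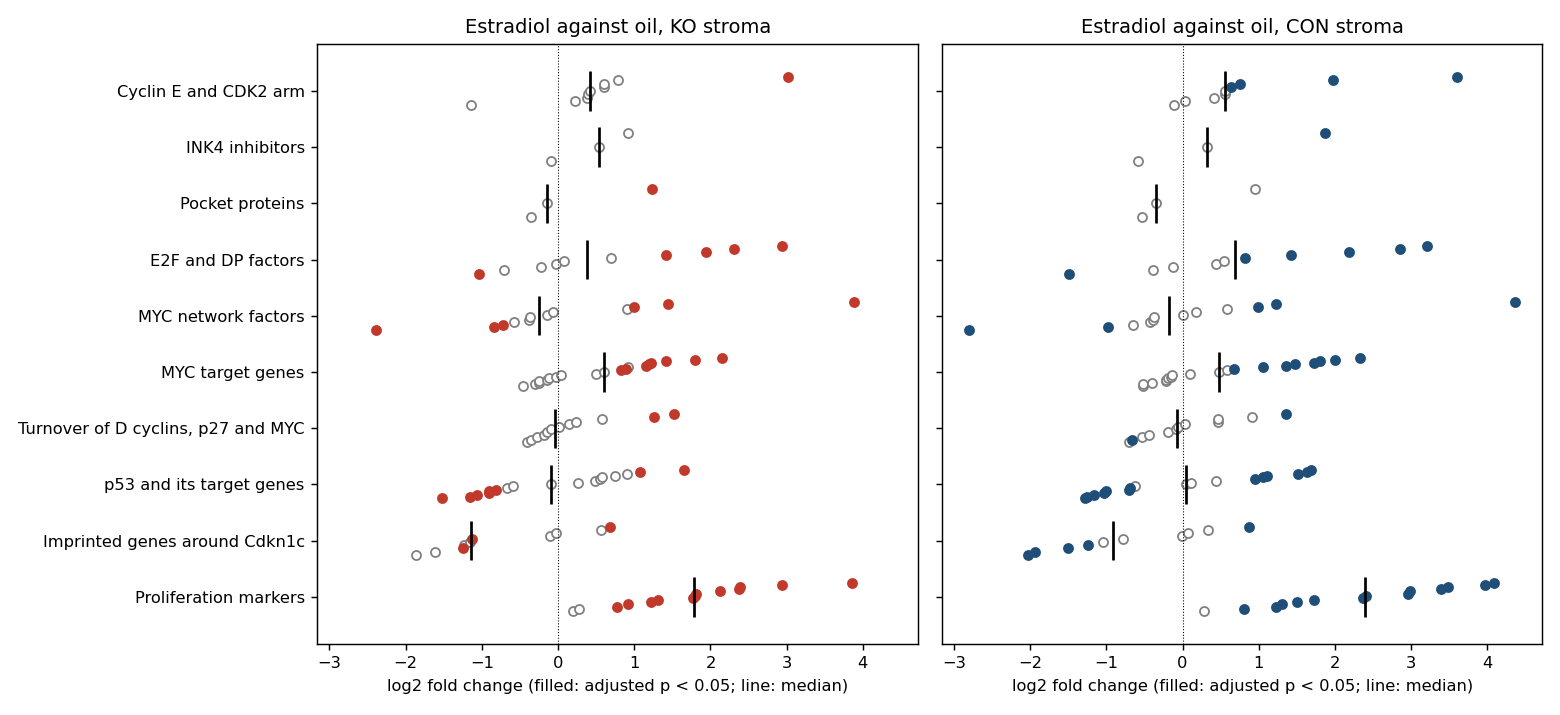
Log2 fold change with estradiol of each tested gene in 10 lists around the G1 genes, in KO stroma (left) and CON stroma (right), with filled points for an adjusted p below 0.05 and a bar at the median of each list. The medians of the proliferation markers, 1.79 and 2.39, lie furthest to the right, and those of the imprinted genes around Cdkn1c, -1.14 and -0.91, furthest to the left.

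KO against CON gave no call among the 10 genes, nor among any of the 13347 tested genes (0%), in either treatment. With estradiol, 1 of the 10 had an unadjusted p below 0.05 in edgeR, against 403 of all genes (3.02%), and DESeq2 also called none. With oil, none of the 10 had an unadjusted p below 0.05, against 339 of all genes (2.54%), and DESeq2 again called none. KO and CON libraries did not overlap for 5 of the 10 genes with estradiol, 1 higher and 4 lower in KO (all tested genes: 34.2%, with 16.0% higher and 18.2% lower). In oil they did not overlap for 4 of 10, 2 higher and 2 lower in KO (all tested genes: 24.5%, with 12.9% higher and 11.6% lower).

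Cdkn1a lay lower in both KO groups than in the matching CON groups, with values that stand above. It did so without overlap, by log2 fold changes of -0.25 ± 0.16 with estradiol (95% interval -0.62 to 0.11) and -0.30 ± 0.16 in oil (-0.66 to 0.06), and both intervals include 0. Cdk4 stood at 0.21 ± 0.19 with estradiol (-0.21 to 0.63) and 0.21 ± 0.19 in oil (-0.22 to 0.64). Ccnd1 stood at -0.30 ± 0.29 with estradiol (-0.95 to 0.35) and -0.29 ± 0.29 in oil (-0.94 to 0.36). For Myc the intervals were wide, -2.17 to 1.1 with estradiol and -2.37 to 0.92 in oil, so a 2-fold lower level in KO lies within both.

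Cdkn1c was the gene with the unadjusted p below 0.05. Both KO E2 libraries (16.7 and 19.4 CPM) lay below both CON E2 libraries (27.9 and 22.7 CPM), a log2 fold change of -0.49 ± 0.20 (95% interval -0.95 to -0.03, edgeR unadjusted p = 0.0403, adjusted p = 1). In oil the order was turned round, with both KO oil libraries (88.2 and 98.8 CPM) above both CON oil libraries (73.5 and 86.0 CPM), at 0.23 ± 0.19 (-0.20 to 0.66). The test of the difference between the estradiol effects of the 2 genotypes, an interaction term, gave -0.72 ± 0.28 for Cdkn1c (-1.35 to -0.09, edgeR unadjusted p = 0.0302, adjusted p = 0.9999), which does not pass the correction. The same term stood between -0.36 and 0.38 for Ccnd1, Ccnd2, Ccnd3, Cdk4, Cdkn1a, Cdkn1b, Myc and Mycn and at 1.36 ± 1.0 for Cdk6, with no call by edgeR or DESeq2 among the 10 or among all genes (210 of all genes, 1.57%, had an unadjusted p below 0.05). No member of the 10 lists drawn around the G1 genes passed in KO against CON.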

How the data were processed

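RNA was extracted with Trizol and made into libraries with a Lexogen QuantSeq kit, per the labels' protocols. QuantSeq kits usually read the 3′ ends of transcripts, but the kit's version is not settled by the sources used here, so values were not scaled by gene length and read shares within a family compare libraries, not genes. The authors deposited raw read counts per gene symbol, 1 file per library. Bowtie2, edgeR and mm10 stand in the submitters' processing notes without versions. The counter, annotation and use of strand are not given in any source used here. Each file had 23282 lines for 23238 symbols. For 35 symbols on 79 lines, none of them among the 10 genes, only the line with most reads was used, which left out 0.0973% of counts.

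Genes passing filterByExpr (minimum count 10, minimum total 15) were tested with edgeR 4.0.16 in R 4.3.3. Libraries were scaled by TMM (trimmed mean of M-values), at 0.918 to 1.03, and each of the 4 groups had its own mean over all 8 libraries. Benjamini-Hochberg adjustment covered all 13347 genes, at 0.05. The edgeR coefficient of variation between libraries of a group, beyond counting noise, came to 21.8%. CPM are scaled with the TMM factors. Each SE was derived from the fit as the absolute log2 fold change over the square root of the quasi-likelihood F. The 95% intervals used this SE with 9.08 degrees of freedom. DESeq2 1.42.0, other scalings and filters, a replicate block and fits without each library were alternatives. Procedures were tested on simulated data. Genes named outside the 10 were up to 4 per list and comparison with the smallest p, or the 3 nearest over the libraries with a mean of at least 10 CPM. Exceptions chosen after their values were seen are Fos, the genes nearest to Myc, and the list genes Odc1, Max, Cdk2 named without a call. Dcn, Ehf, Foxa2, Smtn and Alas2 were named for the direction in which their libraries did not overlap, and Ier3 for its order against Myc. Tspan31, Bysl, AC167363.2 and Kcnq1 were named as overlapping genes, and Atg7 as the deleted gene. The 10 genes and all lists were chosen with earlier results of these data known. Coordinates are from GENCODE M21.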

Additional observations from a re-analysis of the deposited data

How the results depend on the processing

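Counts of calls among the 10 genes with estradiol stayed within 1.5 times of the reported 4 under every alternative except the fits that left out KO E2 library 2 or KO oil library 1. Over the fits without 1 library the KO count ran from 2 to 4 and the CON count from 3 to 4, and counts for KO against CON and for the interaction stayed at 0. No paired analysis was taken as the design, since numbers alone link the libraries: the correlation of deviations between same-numbered libraries ran from -0.231 to 0.494 over the 6 pairs of groups. With the replicate block the counts were 4 in KO stroma and 5 in CON stroma, where Cdkn1b passed (adjusted p = 0.0440), and with crossed numbers in CON stroma, an alternative added after seeing the data, 6 passed. Over all genes the estradiol counts were 3242 in KO stroma and 3978 in CON stroma, 4257 and 2305 when the groups compared were fitted alone, and 740 to 4345 and 1505 to 4168 without 1 library.

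Signs turned for small log2 fold changes. With the replicate block Myc stood at 0.069 in KO stroma and 0.078 in CON stroma, and the interactions of Ccnd1 and Myc at 0.012 and -0.0088. The Cdk4 interaction was -0.043 with library totals and -0.00073 with a filter of 1 CPM in 2 libraries. Without 1 library, estradiol changes in KO stroma ran from -0.53 to 0.45 (Ccnd1), -1.02 to 0.11 (Cdk6) and -0.56 to 0.73 (Myc). In CON stroma they ran from -0.31 to 0.11 (Ccnd1), -1.01 to 1.55 (Myc) and -0.77 to 0.61 (Mycn). KO against CON in oil ran from -0.86 to 0.12 (Ccnd1), -0.43 to 0.10 (Ccnd2), -0.026 to 0.065 (Cdkn1b), -1.51 to 1.07 (Myc) and -0.46 to 0.92 (Mycn). With estradiol it ran from -0.11 to 0.70 (Ccnd2), -0.039 to 0.044 (Ccnd3), -0.17 to 1.124 (Cdk6), -0.00043 to 0.31 (Cdkn1b) and -1.01 to 0.19 (Myc). The interaction ran from -0.42 to 0.56 (Ccnd1), -0.15 to 0.16 (Cdk4), -0.049 to 0.15 (Cdkn1a), -0.021 to 0.29 (Cdkn1b), -1.60 to 0.98 (Myc) and -1.20 to 0.18 (Mycn). Cdk6 could not be fitted without 1 of the 8 libraries, where it had too few reads. The causes were not tested.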
